A study of Mus musculus with 4 samples.

Results

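The sodium pump and epithelial sodium channel subunit genes Atp1b1, Atp1b2, Atp1b3, Scnn1a, Scnn1b, Scnn1g, Fxyd3 and Fxyd5 were followed in cultured CT26 cells, a colon carcinoma line of the mouse. They are 8 genes of this system, chosen by name with earlier results of these arrays known, and 7 of them were measured, each by 1 probe set that carries no other gene's symbol. Fxyd3 had only a probe set shared with the gene Lgi4 and has no value of its own. The whole table names 22180 genes. RNA was hybridised to 4 Affymetrix Mouse Gene 2.0 ST arrays, 1 per group. Unmodified CT26 cells received the solvent DMSO for 24 h, or 5 µM Senexin B, an inhibitor of the Mediator kinases CDK8 and CDK19, for 24 h. The other pair was the CT26 line with the pLKO.1 hairpin vector and the CT26 line labelled shCDK8, with no drug named in the labels of either. The labels do not say whether these lines were clones or pools, or which hairpin sequence was used, and they name no replicate.

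The sodium pump, the Na,K-ATPase, moves sodium out of the cell and potassium in at the cost of ATP. Its alpha subunit carries out the transport, its beta subunit is a glycoprotein that brings the alpha subunit to the plasma membrane and takes part in cell adhesion, and small FXYD proteins tune its kinetics. The epithelial sodium channel ENaC, built of alpha, beta and gamma subunits (Scnn1a, Scnn1b, Scnn1g), lets sodium in at the apical side of absorbing epithelia. In distal colon and kidney collecting duct, channel and pump together carry sodium across the cell layer under control of aldosterone.

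Each probe set has a log2 expression value, so a difference of 1 is 2-fold. With 1 array per group there is no spread between replicates, no error on a difference and no test, and each difference is one between 2 arrays. The control arrays, pLKO.1 minus DMSO, show how far arrays differed without inhibitor or CDK8 hairpin, although they differ in vector and solvent and each also serves in 1 of the comparisons. Genes with at least 1 array at or above 5.98 were called expressed, and there were 14272 of them. This limit, the 40th percentile of the values of all genes, is not a detection call. Across array pairs Pearson's r over all probe sets was 0.982 to 0.990. Cdk8, aimed at by the hairpin, stood at 10.79 in pLKO.1 and at 9.07, 3.31-fold lower, in shCDK8. Of the colon epithelial markers 10 of 16 were expressed, beside 14272 of the 22180 named genes. This count therefore says nothing on the identity of the cells. Among the 10 were Krt20 (6.59 to 8.72), Cdh1 (6.50 to 6.74) and Cdx2 (6.40 to 6.82). Epcam lay under the limit on all arrays (4.38 to 4.64), as did Krt19, Vil1, Cldn7, Lgals4 and Slc26a3. All 7 measured mesenchymal markers, such as Vim and Fn1, were expressed on every array.

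Expression of the beta 1 subunit gene Atp1b1 was 3.64-fold lower with Senexin B than with DMSO, and in the shCDK8 line it was 3.49-fold above pLKO.1. Expression of the gamma subunit gene Scnn1g went the other way on both occasions, 7.81-fold higher with Senexin B and 1.79-fold lower in shCDK8. None of the other 5 measured genes reached a difference of 0.5 in either comparison. The genes were chosen with these differences in view, so the values describe the pattern and are not evidence for it. RNA was pooled over all cells of a culture, so fewer cells with a transcript and less of it per cell cannot be told apart.

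**Figure D1:**
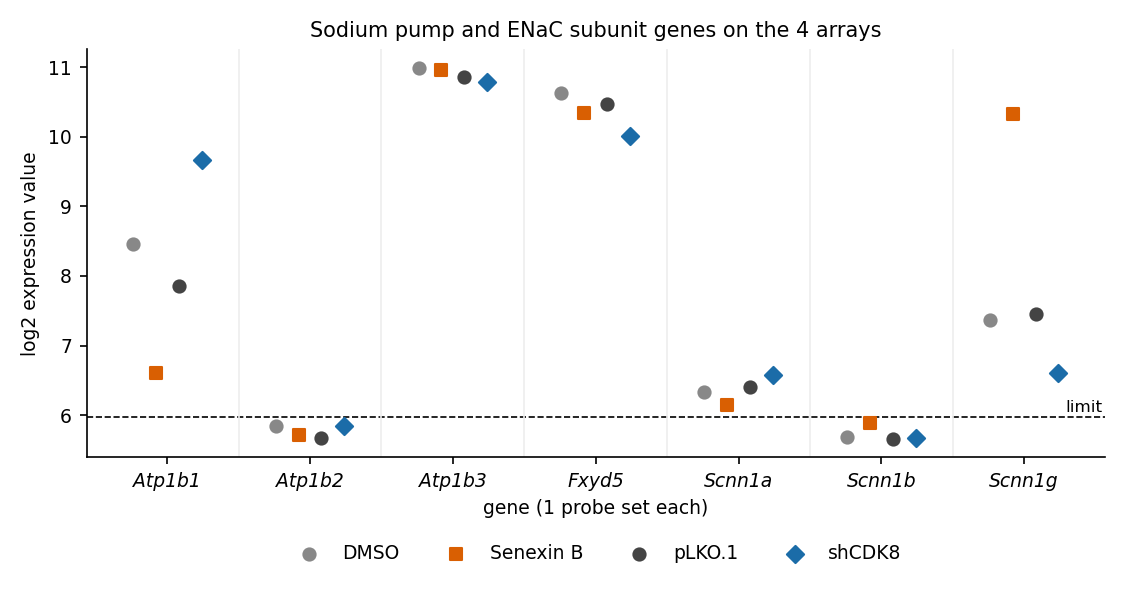
Log2 expression value (vertical axis) of the 7 measured sodium pump and ENaC subunit genes (horizontal axis) on the DMSO, Senexin B, pLKO.1 and shCDK8 arrays, 1 point per array. The dashed line marks the expression limit of 5.98. Atp1b1 spans 3.06 and Scnn1g 3.71 between its lowest and highest array, whereas Atp1b2 and Scnn1b lie under the line on all 4.

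Atp1b1 stood at 8.46 in DMSO, 6.60 in Senexin B, 7.85 in pLKO.1 and 9.66 in shCDK8. The Senexin B array was thus the lowest and the shCDK8 array the highest, with both controls in between, and all 4 values lay above the limit. The difference was -1.86 in the Senexin B comparison and 1.80 in the hairpin comparison, which gave the gene rank 6 among the expressed genes lower with Senexin B and rank 2 among those higher in shCDK8. Between the controls the difference was -0.61, with pLKO.1 the lower, and 0.841% of expressed genes were at least that far apart there. Set against the other control array, Atp1b1 was still 2.39-fold lower with Senexin B and 2.29-fold higher in shCDK8. It was the only one of the 14272 expressed genes at least 2-fold lower with Senexin B and at least 2-fold higher in shCDK8. That is 2.78% of the 36 lower genes, beside 0.196% of all expressed genes higher in shCDK8. It is 3.57% of the 28 higher ones, beside 0.252% of all expressed genes lower with Senexin B. The reverse, 2-fold higher with Senexin B and 2-fold lower in shCDK8, held for 8 genes. They are 17.4% of the 46 genes lower in shCDK8, beside 0.687% of all expressed genes higher with Senexin B. A further 5 were lower in both comparisons, 10.9% of those 46, beside 0.252% of all expressed genes lower with Senexin B. Another 2 were higher in both, 7.14% of the 28 genes higher in shCDK8, beside 0.687%. Atp1b1 was chosen with these differences in view. The comparisons have no array in common.

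Scnn1g stood at 7.36 in DMSO, 10.32 in Senexin B, 7.45 in pLKO.1 and 6.61 in shCDK8. The Senexin B array was high, the shCDK8 array was low, and the controls were 0.09 apart. The Senexin B difference of 2.97 had rank 3 among the higher expressed genes, and only 4 expressed genes, Scnn1g included, were that far apart in either direction. Against the pLKO.1 array it was 2.87. In shCDK8 minus pLKO.1 the difference of -0.84 did not reach 2-fold, and 1.09% of expressed genes lay at least as far from 0. Against DMSO it was -0.74. All 4 Scnn1g values lay above the expression limit.

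Among all expressed genes 0.939% were at least 2-fold apart between Senexin B and DMSO, 0.687% higher and 0.252% lower, and 2 of the 5 expressed subunit genes were, Scnn1g higher and Atp1b1 lower. Between shCDK8 and pLKO.1 the share was 0.518%, with 0.196% higher, and 1 of the 5 subunit genes, Atp1b1, was 2-fold higher. Between the controls 0.0981% of genes were 2-fold apart and none of the subunit genes. Since these contrasts served to choose the genes, nothing is read from the counts. The median of the 5 expressed genes was -0.179 for Senexin B, -0.072 for shCDK8 and -0.13 between the controls, beside medians of -0.028, 0.004 and -0.023 over all expressed genes.

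**Figure D2:**
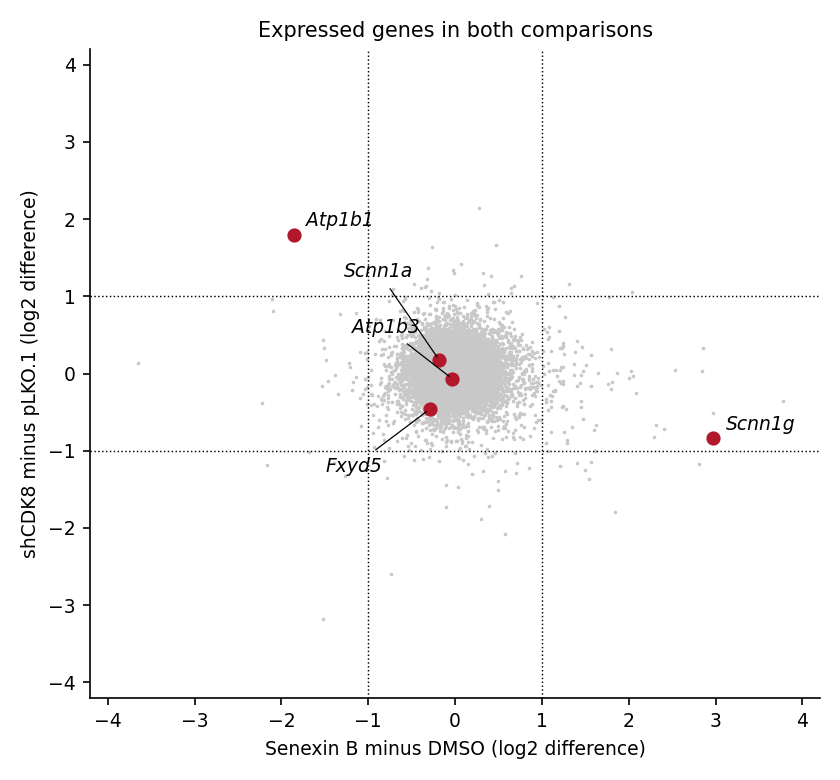
Each grey point is 1 of 14272 expressed genes, placed by the log2 difference between Senexin B and DMSO (horizontal axis) and that between shCDK8 and pLKO.1 (vertical axis). Dotted lines mark 2-fold and red points the 5 expressed subunit genes. Atp1b1, at -1.86 and 1.80, lies alone in the upper left field, and Scnn1g, at 2.97 and -0.84, lies at the far right.

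The other beta subunit genes did not share the Atp1b1 pattern. Atp1b3, whose product pairs with the alpha subunit in many tissues, stood at 10.99 in DMSO, 10.96 in Senexin B, 10.86 in pLKO.1 and 10.78 in shCDK8. Its differences were -0.03 and -0.07, smaller than the -0.13 between the controls, and 90.2% of expressed genes were farther apart with Senexin B. Atp1b2, the beta subunit known from glia as an adhesion molecule, stayed under the expression limit on all arrays, between 5.67 and 5.85. Its differences were -0.14 and 0.17, beside -0.18 between the controls.

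Fxyd5, or dysadherin, is an FXYD protein that modulates the pump and is known to weaken cell adhesion. It stood at 10.63 in DMSO, 10.34 in Senexin B, 10.47 in pLKO.1 and 10.01 in shCDK8, so each control was above its partner. The difference was -0.29 for Senexin B, and 22.4% of expressed genes were at least that far apart. In shCDK8 it was -0.46, or 1.37-fold lower, a distance that 7.29% of expressed genes reached. Against the other control arrays Fxyd5 was -0.13 for Senexin B and -0.62 for shCDK8. Between the controls it was -0.16, with pLKO.1 the lower.

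Scnn1a, the alpha subunit on which assembly of the channel depends, stood at 6.33 in DMSO, 6.15 in Senexin B, 6.40 in pLKO.1 and 6.57 in shCDK8. It lay just above the expression limit on all 4 arrays, with differences of -0.18 and 0.17, sizes that 43.8% and 42.6% of expressed genes reached. Scnn1b, the beta subunit gene, stood at 5.68, 5.89, 5.66 and 5.67 in the same order and was under the limit throughout. Its differences were 0.22 and 0.01. Of the channel genes, only Scnn1g was thus 2-fold apart in either comparison, and no channel gene was between the controls. RMA compresses differences of probe sets near background, so a difference in Scnn1a or Scnn1b could be larger than these values.

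Scnn1g and Scnn1b are direct neighbours on chromosome 7 in the RefSeq annotation of GRCm38.p6. On the other side of Scnn1g lies Usp31, which was 0.10 higher with Senexin B and at -0.18 in shCDK8. Beyond Scnn1b, Cog7 was at 0.26 and -0.11 and Gga2 at 0.50 and 0.02. None of the 6 nearest protein-coding genes measured around Scnn1g was 2-fold apart. Over all expressed genes the share was 0.939% with Senexin B and 0.518% in shCDK8. Otoa, Hs3st2 and Scnn1b were under the limit on all arrays. Scnn1g and Atp1b1 were chosen with their differences in view, so nothing is read from their contrast with neighbours. Around Atp1b1, on chromosome 1, Nme7 was 0.66 higher in shCDK8 and 0.25 higher with Senexin B, and Dpt, the gene of the matrix protein dermatopontin, was at 0.35 with Senexin B and -0.01 in shCDK8. Among its 6 neighbours none was 2-fold apart either. Tbx19, under the limit on all arrays, was at -0.70 in shCDK8 and 0.48 with Senexin B.

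**Figure D3:**
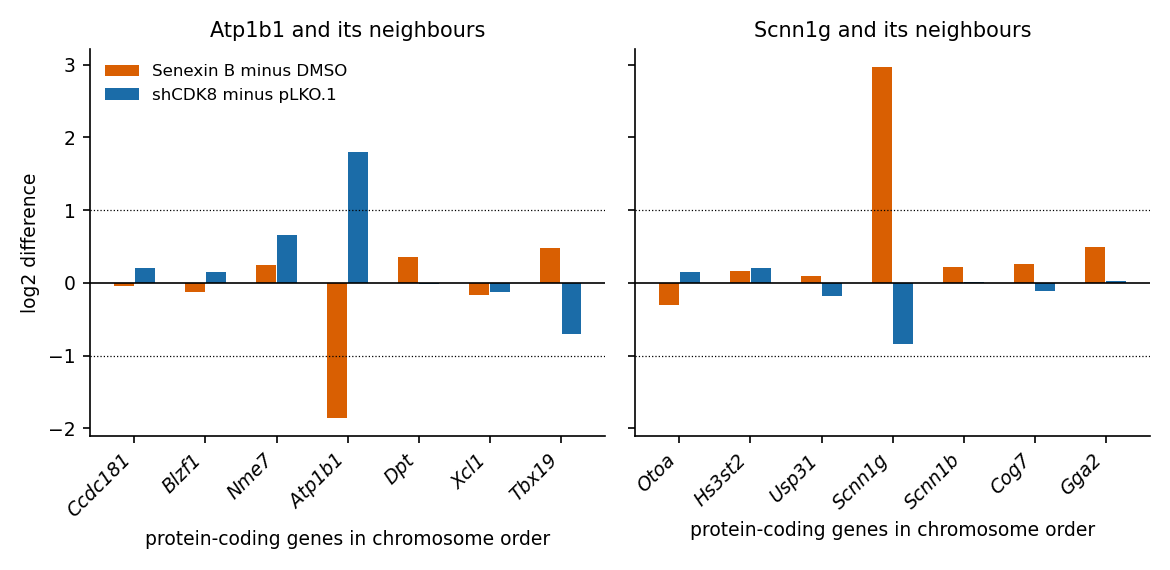
Log2 difference (vertical axis) of Atp1b1 (left) and Scnn1g (right) and of the 3 nearest protein-coding genes on each side, in RefSeq order (horizontal axis; distances are not to scale). Orange bars show Senexin B minus DMSO and blue bars shCDK8 minus pLKO.1. In each panel the largest bars are those of the named gene, -1.86 and 1.80 for Atp1b1 and 2.97 and -0.84 for Scnn1g, and no neighbour reaches the dotted 2-fold lines. Both named genes were chosen with these differences in view.

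The start regions of Atp1b1 and Scnn1g are shown because these genes went opposite ways in both comparisons, and that of Scnn1b because it adjoins Scnn1g and stayed under the limit. Each is the 250 bases before the RefSeq transcription start in GRCm38.p6, the C57BL/6J reference, read 5′ to 3′ on the gene's strand. CT26 comes from another strain, BALB/c. The Atp1b1 window is chr1:164458356-164458605 on the minus strand, that of Scnn1g is chr7:121734229-121734478 on the plus strand, and that of Scnn1b is chr7:121864788-121865037 on the plus strand. Capitals mark matches, on either strand, to the motifs searched. The GC box, bound by proteins of the Sp family, was searched as GGGCGG. The CCAAT box, which the NF-Y complex binds, was searched by the letters of its name, and an element resembling the usual TATA box as TATATA. An E-box of the kind that Snail and Zeb repressors recognise was searched as CAGGTG. The letters taken for the TCF/LEF factors of the Wnt pathway were CTTTGAT. Those taken for the STAT factors downstream of cytokine receptors were TTCNNNGAA. The part of steroid receptor sites that was searched for reads AGAACA.
Atp1b1: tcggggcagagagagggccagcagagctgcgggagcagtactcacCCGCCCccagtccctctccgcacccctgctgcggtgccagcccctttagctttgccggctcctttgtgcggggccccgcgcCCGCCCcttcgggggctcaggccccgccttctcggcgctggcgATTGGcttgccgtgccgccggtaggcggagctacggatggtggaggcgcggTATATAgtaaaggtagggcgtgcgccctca
Scnn1g: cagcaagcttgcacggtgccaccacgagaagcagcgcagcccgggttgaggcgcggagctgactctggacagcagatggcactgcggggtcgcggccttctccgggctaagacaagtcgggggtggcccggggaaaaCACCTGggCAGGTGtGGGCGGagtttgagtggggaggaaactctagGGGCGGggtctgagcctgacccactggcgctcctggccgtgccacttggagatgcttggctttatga
Scnn1b: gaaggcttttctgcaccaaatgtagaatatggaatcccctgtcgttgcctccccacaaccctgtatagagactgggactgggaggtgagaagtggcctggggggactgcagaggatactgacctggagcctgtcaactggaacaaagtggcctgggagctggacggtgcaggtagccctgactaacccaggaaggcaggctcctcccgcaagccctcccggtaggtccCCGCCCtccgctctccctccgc

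The windows differed in base composition and in the motifs they hold. The Atp1b1 window has 70.4% G and C and 24 CpG pairs, that of Scnn1g 65.2% and 16, and that of Scnn1b 60.8% and 7, beside medians of 52.4% and 6 over 32851 windows of the same length. Atp1b1 has a TATATA from -30 to -25 relative to the start, a reversed CCAAT from -81 to -77 and a pair of GC boxes. TATATA occurs in 5.25% of all windows, CCAAT in 33.8% and GGGCGG in 32.7%. Scnn1g has a pair of E-boxes in opposite orientation, from -113 to -108 and from -105 to -100, and GC boxes from -98 to -93 and from -67 to -62. CAGGTG occurs in 17.2% of all windows. Scnn1b has a single GC box from -22 to -17. None of the 3 windows holds the TCF/LEF, STAT or steroid receptor letters, which occur in 3.21%, 7.02% and 16.1% of all windows. The matched motifs do not overlap each other in these windows, and a match describes letters, not binding.

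The other pump subunit genes measured, except Fxyd7, were close to or under the expression limit. Of 10 further subunits of the sodium pump and the related proton-potassium pumps that were measured 5 were expressed. None of these was 2-fold apart, beside 0.939% of all expressed genes with Senexin B and 0.518% in shCDK8. Atp1a4, the alpha subunit of sperm, was at 0.18 with Senexin B and 0.01 in shCDK8. Fxyd7 lay between 6.99 in pLKO.1 and 7.29 in shCDK8, a difference of 0.30, with the other arrays in between. Fxyd6 was at 0.14 and -0.10, Atp4b at 0.17 and -0.05, and Atp4a, the catalytic subunit of the gastric proton pump, at 0.00 and -0.17. Atp1b4, Fxyd1, Fxyd2, Fxyd4 and Atp12a lay under the limit on all arrays. The median of the 5 expressed genes was 0.138 with Senexin B and -0.052 in shCDK8. Atp1a4 passed the limit on the Senexin B array alone, at 6.07 beside 5.89 in DMSO. The filter thus favours a higher Senexin B value for it, and nothing is read from the Senexin B median.

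Among the acid-sensing channels, which belong to the same protein family as ENaC, Asic1 was the farthest apart. It stood at 5.69 in DMSO, 6.51 in Senexin B, 5.74 in pLKO.1 and 5.80 in shCDK8, so that the Senexin B array alone was above the limit, by 0.82 over DMSO. Asic3 and Asic4 differed by at most 0.05 in both comparisons, and Asic2 and Asic5 were not expressed. None of the 3 expressed members was 2-fold apart, beside 0.939% of all expressed genes with Senexin B and 0.518% in shCDK8.

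Regulators of the channel were counted in the same way. Of 19 listed genes, all measured, 16 were expressed and none was 2-fold apart in either comparison. Over all expressed genes the share was 0.939% with Senexin B and 0.518% in shCDK8. In the Senexin B comparison 10 were higher and 6 lower, and the median was 0.05. Sgk1, the aldosterone-induced kinase that keeps ENaC at the membrane, was 0.33 higher, Nedd4l, the ubiquitin ligase that removes it, was at -0.33, and Spint2, an inhibitor of channel-cleaving proteases, was 0.43 higher. In shCDK8 4 were higher and 12 lower, and the median was -0.096. Usp2, a deubiquitinase, was 0.54 higher and Spint2 0.48 higher, while Nr3c2, the mineralocorticoid receptor, was at -0.50, from 5.97 in pLKO.1 to 5.46 in shCDK8, both under the limit. Over all expressed genes 44.8% lay above 0 with Senexin B and 50.8% in shCDK8. The counts of the 16 regulators depended on the control array. Against DMSO, 8 were higher and 8 lower in shCDK8, with a median of 0.045. Against pLKO.1, 6 were higher and 10 lower with Senexin B, with a median of -0.059.

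Corticosteroid-induced genes, of which Scnn1g is one in some epithelia, were listed separately. All 7, with Sgk1 again among them, were expressed. None was 2-fold apart, beside 0.939% of all expressed genes with Senexin B and 0.518% in shCDK8. With Senexin B 6 lay above 0, beside 44.8% of all expressed genes. The median was 0.329, whereas the controls gave -0.039. Dusp1, a phosphatase of MAP kinases, was 0.84 higher, Klf9, Tsc22d3 and Sgk1 were each 0.33 higher, and Per1, a clock gene, was at -0.50. Zbtb16, at 0.11, and Fkbp5, at 0.06, differed little. In shCDK8 the median was -0.109, with Klf9 at -0.37, Dusp1 at 0.33 and Fkbp5 at -0.30. Of 3 measured osmotic stress genes the largest difference was that of the betaine carrier Slc6a12, 0.33 in shCDK8, beside -0.51 between the controls. With Senexin B the transcription factor gene Nfat5 was at 0.10, Slc6a12 at -0.06 and the taurine carrier gene Slc6a6 at -0.04, and in shCDK8 Slc6a6 was at -0.28 and Nfat5 at -0.15.

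Of 18 listed sodium-coupled carriers 15 were measured and 9 expressed. With Senexin B 1 of the 9 was at least 2-fold lower, beside 0.252% of all expressed genes. In shCDK8 none was 2-fold apart, beside 0.518%. Slc9a2, a sodium-proton exchanger of gut epithelium, stood at 7.75 in DMSO, 6.65 in Senexin B, 7.77 in pLKO.1 and 8.05 in shCDK8. The Senexin B array was the low one, 2.14-fold below DMSO, and the shCDK8 array was 0.28 above pLKO.1. Slc12a2, the sodium-potassium-chloride cotransporter, was at -0.66 with Senexin B and -0.16 in shCDK8, and Slc5a6, a vitamin carrier, at -0.79 and -0.18, with -0.41 between the controls. The phosphate carrier gene Slc20a1 was at -0.42 and the glutamine carrier gene Slc38a2 at -0.29 in shCDK8. The median of the 9 was -0.057 with Senexin B and -0.141 in shCDK8. One of the 9, Slc9a3, passed the limit on the Senexin B array alone, at 6.03 beside 5.68 in DMSO. The filter thus favours a higher Senexin B value for it, and nothing is read from the Senexin B median.

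**Figure D4:**
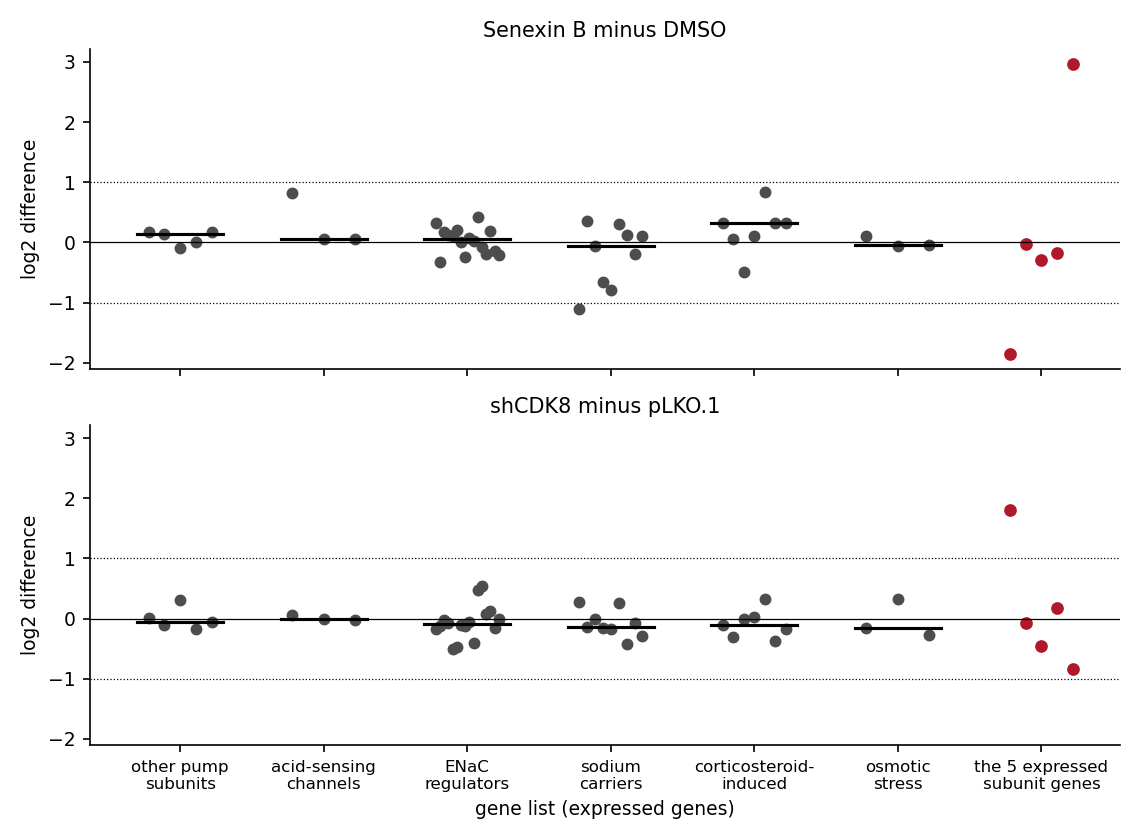
Log2 difference (vertical axis) of each expressed gene in 6 related lists and of the 5 expressed subunit genes (horizontal axis) in the comparisons Senexin B minus DMSO (top) and shCDK8 minus pLKO.1 (bottom). Each point is 1 gene, black bars are list medians and dotted lines mark 2-fold. Outside the subunit genes only Slc9a2, at -1.10 with Senexin B, crosses a dotted line.

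Genes whose values followed Atp1b1 and Scnn1g most closely were sought among 12860 expressed genes by the root-mean-square distance of the 4 log2 values, each gene centred on its own mean. With 4 arrays such likeness is a description. Nearest to Atp1b1 were Aspa, an aspartoacylase (distance 0.376), Esm1, a proteoglycan of endothelium and tumours (0.389), Rasgrp3, an exchange factor for Ras proteins (0.449), Taf9b (0.504) and Sh2d1b1 (0.512). All 5 were lowest with Senexin B and highest in shCDK8, but none was 2-fold higher there, with differences from 0.44 for Sh2d1b1 to 0.97 for Esm1. Aspa lay under the limit on the Senexin B array, and Sh2d1b1 on that array and the DMSO array. All 5 distances for Scnn1g were smaller than the smallest for Atp1b1. The genes were Lpar4, a receptor for lysophosphatidic acid (0.129), the aldehyde dehydrogenase gene Aldh3a1 (0.130), the matrix proteoglycan gene Bgn (0.294), and the chemokine genes Ccl7 (0.317) and Ccl11 (0.355), the last of which lay under the limit on the DMSO and shCDK8 arrays. In shCDK8 they ranged from Ccl7 at 0.03 to Lpar4 at -1.17, with Scnn1g at -0.84.

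**Figure D5:**
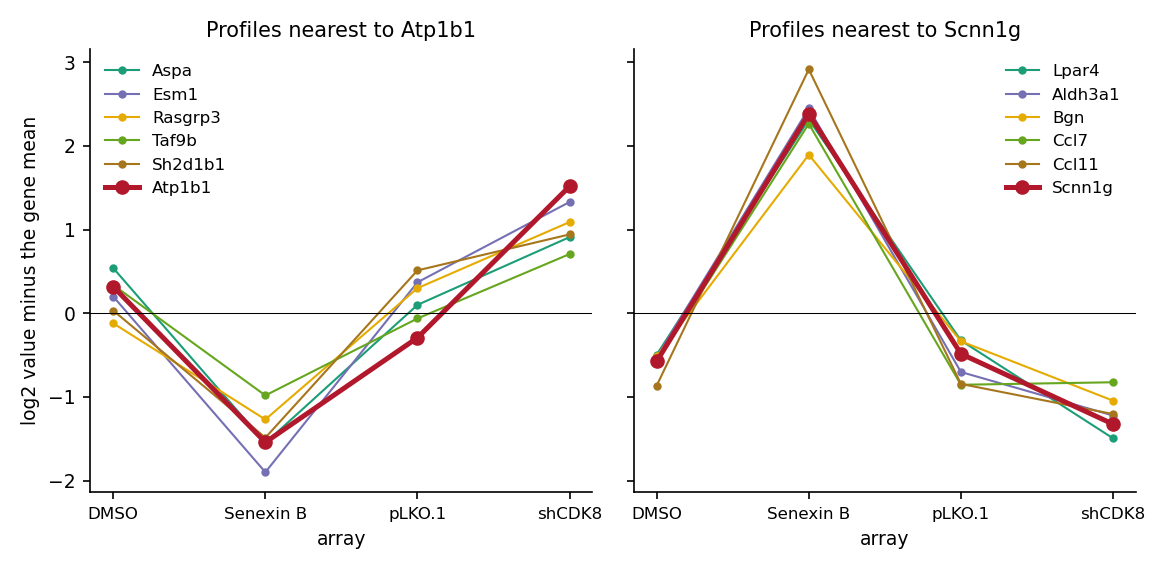
Log2 value minus the gene's mean over the 4 arrays (vertical axis) on each array (horizontal axis) for Atp1b1 (left) and Scnn1g (right), in red, and the 5 genes nearest to each. Lines join the values of 1 gene and imply no order of the arrays. The nearest gene is 0.376 from Atp1b1 (Aspa) and 0.129 from Scnn1g (Lpar4).

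Markers of other cell types were read on the same arrays. Fibroblast markers, all 6 of them expressed, had mean levels of 8.99 in DMSO, 9.67 in Senexin B, 9.22 in pLKO.1 and 8.70 in shCDK8, which is the order of the arrays for Scnn1g. Fap was above the limit on the pLKO.1 array alone, at 6.41. With Senexin B 5 of the 6 lay above 0, led by Dcn (2.29), and in shCDK8 5 lay below 0, led by Col3a1 (-1.27), with list medians of 0.402 and -0.578. Their part in the Scnn1g values was not tested. Of all expressed genes, 44.8% lay above 0 with Senexin B and 50.8% in shCDK8. The 16 colon epithelial markers had mean levels between 6.14 and 6.34. Of the 10 expressed ones 9 lay above 0 in shCDK8, beside 50.8% of all expressed genes, with a median of 0.121. Krt20 was at -1.44 there, and 4 of the 10 lay above 0 with Senexin B. Against the DMSO array 5 of the 10 lay above 0 in shCDK8, with a median of 0.005. Between the controls 8 of the 10 lay below 0, with a median of -0.147. The 6 markers of the kidney collecting duct and distal tubule, where channel and pump act together, had mean levels between 5.77 and 5.97. Of these, 4 were expressed, and only Aqp2, between 6.53 and 6.91, was above the limit on all 4 arrays. Calb1 and Slc12a3 were under it on every array. Of 6 measured immune markers Cd68 alone was expressed, with Ptprc between 4.27 and 4.66, and the 4 endothelial markers had mean levels between 5.62 and 5.99.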

How the data were processed

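The table deposited by the authors gives 41345 probe sets a log2 expression value on each array. Affymetrix Expression Console and RMA made them, per the submitters' processing notes; for versions, settings and joint normalization the sources used here give nothing. RMA removes shifts common to all genes and compresses differences near background. The array medians were 5.99 to 6.04, and the number of arrays limits the precision.

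The 23521 probe sets with 1 gene symbol in the platform annotation were used; 1814 had several and 16010 none. Per gene the probe set with the highest mean was kept, and 22139 of 22180 symbols, including all 8 subunit genes, matched the RefSeq table for GRCm38.p6. Differences were computed with Python 3.11.15, pandas 2.3.3 and numpy 2.4.6; the script was checked on a simulated pair of arrays. Promoter windows come from RefSeq. The subunit genes, the related lists and the motifs were chosen with earlier results of these data known. The text names pump and ENaC/ASIC subunits, list genes that were 2-fold apart or among the 3 largest differences of their list, and the 5 nearest profiles (predicted loci, pseudogenes and small RNAs left out). Neighbours and markers, and the families below, were named after their values were seen. Alternatives were other filters, normalizations, probe set rules, floors, thresholds and the other control array.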

Additional observations from a re-analysis of the deposited data

How the results depend on the processing

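With 1 array per group no replicate could be left out, and no paired analysis was possible because no group has a second array. Over the alternatives for the member differences and counts, shifts of 0.1 or more in a difference, and changes beyond 1.5 times in a count, were taken as moved, and none of the differences past 2-fold changed sign. With the other control array Atp1b1 was at -1.255 for Senexin B and at 1.194 for shCDK8, both still past 2-fold, and the median of the 5 expressed genes was -0.202 for shCDK8. With the filter at the 60th percentile, which left 4 of the genes, that median was -0.264. At a 1.5-fold threshold 2 genes counted in shCDK8 (Scnn1g with Atp1b1) and 1, Atp1b1, between the controls. Repeated quantile normalization, a subtracted lowess trend (span 0.3), and the mean of probe sets moved none of the member differences; each gene has 1 probe set, so the last could not. In all, 60 of 66 alternative values stayed within these bounds for the counts, the medians and the Atp1b1 and Scnn1g differences of the main comparisons. For the other genes, and for single genes between the controls, 68 of 78 did. Of the 10 that moved, 6 did so with the other control and 4 when values under the limit were raised to 5.98, a step that sets Atp1b2 and Scnn1b to no difference by construction.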

Other observations

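Ion transport genes were also counted as whole families, grouped by gene symbol. Of 245 expressed solute carrier genes Slc9a2 was the only one at least 2-fold apart with Senexin B, 0.408% beside 0.939% of all expressed genes. In shCDK8 Slc16a3, a lactate transporter, was at -1.39 and Slc27a3, of the fatty acid transport protein family, at 1.01, which makes 0.816% of the family beside 0.518% of all expressed genes. Slc27a3 stood at 6.73 in DMSO, 6.72 in Senexin B, 6.64 in pLKO.1 and 7.66 in shCDK8, so that the shCDK8 array alone was apart. Of 59 expressed potassium channel genes none was 2-fold apart with Senexin B and Kcnab2, a channel beta subunit, was at -1.89 in shCDK8, which is 1.69% of the family. Of 23 expressed P-type ATPase genes, a group that includes the beta subunits here, Atp1b1 was the only one 2-fold apart in either comparison, 4.35% in each. Atp1b1 was chosen with these differences in view, so that share only repeats the choice. Of 14 expressed genes of the Clcn, Ano and Clca families, which hold chloride channels, Clca3a1 was 1.23 higher in shCDK8, from a pLKO.1 value under the expression limit (5.14 to 6.37), 7.14% of that group. These shares rest on 1 or 2 genes each.

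The probe set shared by Fxyd3 and Lgi4 stood at 5.87 in DMSO, 6.07 in Senexin B, 5.65 in pLKO.1 and 5.81 in shCDK8, with differences of 0.20 and 0.17. Lgi4 also has a probe set of its own, which was at -0.11 with Senexin B and 0.30 in shCDK8, and the shared values cannot be assigned to either gene.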
